A study of Mus musculus with 2 samples.

Results

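The NRF2 target redox genes described here are 10 genes listed by name as known targets of the transcription factor NRF2: Nqo1, Hmox1, Srxn1, Txnrd1, Prdx1, Gclc, Gclm, Slc7a11, Gpx2 and Osgin1. All 10 of 10 were found by symbol among the 31053 genes of the deposited matrix. Their values were read over barcodes with at least 500 genes, at least 1000 unique molecular identifiers (UMIs, each standing for 1 captured RNA molecule) and at most 20% mitochondrial UMIs, by cell type as gated on marker genes and by barcode suffix. The study used organoids of the mouse small intestine, self-organised epithelium kept in culture, either untreated (control) or treated with melatonin, and it asked about intestinal repair, per its title. The control and the melatonin-treated group had 1 library each, a pool of cells from 3 organoid lines taken on culture day 3 and read from the 3′ ends of RNAs in droplets, and the labels name no strain, genotype or allele. The 3 files of one sample were byte for byte those of the other, so that both hold a single matrix whose barcodes end in 1 (set 1) or 2 (set 2). No label or file header ties a suffix to a treatment, so the control was not compared with melatonin, the direction from set 1 to set 2 is arbitrary, and there are no replicates and no tests. All intervals are 95% intervals that cover counting error only.

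NRF2, encoded by Nfe2l2, is made continuously and held for degradation by KEAP1 in unstressed cells. Oxidants and electrophiles release it, and it then pairs with small MAF proteins on antioxidant response elements near genes for quinone detoxification, glutathione synthesis, thioredoxin and peroxiredoxin recycling and NADPH supply. BACH1 competes for the same elements and is best known as a repressor of Hmox1. In the gut, the glutathione peroxidase encoded by Gpx2 is a mark of the crypt epithelium.

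Promoter sequences are shown because the 10 genes share this regulator by description, and they give the reader the letters that the usual core of the element would match. RefSeq promoters of build GRCm38.p6, from 250 bases before to 50 bases after a transcription start, were found for 8 of the 10 genes, with 10 promoters in all since Txnrd1 had 3; Hmox1 and Gclc were not matched. The core was searched as TGACNNNGC on both strands, and a match was present in 4 of these 10 promoters, 1 each of Gclm, Prdx1, Srxn1 and Txnrd1. Of all 32851 promoters of this length, 12.4% held it. The 4 promoters with a match follow, each on the plus strand and written 5′ to 3′, with capitals on the match, which in each of them lies on the minus strand and so reads as its reverse complement. Gclm is at chr3:122245307-122245606, Prdx1 at chr4:116685349-116685648, Srxn1 at chr2:152105274-152105573 and Txnrd1 at chr10:82858956-82859255.
Gclm: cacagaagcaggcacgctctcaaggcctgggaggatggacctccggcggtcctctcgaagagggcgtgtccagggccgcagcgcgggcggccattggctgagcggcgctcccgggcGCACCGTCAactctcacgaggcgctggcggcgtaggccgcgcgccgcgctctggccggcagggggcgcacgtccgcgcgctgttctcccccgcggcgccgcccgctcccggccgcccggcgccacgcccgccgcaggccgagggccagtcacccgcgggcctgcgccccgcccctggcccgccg
Prdx1: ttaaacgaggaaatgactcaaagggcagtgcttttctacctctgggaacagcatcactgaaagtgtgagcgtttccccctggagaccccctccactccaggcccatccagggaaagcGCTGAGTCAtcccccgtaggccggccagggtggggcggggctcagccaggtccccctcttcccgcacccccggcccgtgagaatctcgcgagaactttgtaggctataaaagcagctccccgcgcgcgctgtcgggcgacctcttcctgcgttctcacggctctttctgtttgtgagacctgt
Srxn1: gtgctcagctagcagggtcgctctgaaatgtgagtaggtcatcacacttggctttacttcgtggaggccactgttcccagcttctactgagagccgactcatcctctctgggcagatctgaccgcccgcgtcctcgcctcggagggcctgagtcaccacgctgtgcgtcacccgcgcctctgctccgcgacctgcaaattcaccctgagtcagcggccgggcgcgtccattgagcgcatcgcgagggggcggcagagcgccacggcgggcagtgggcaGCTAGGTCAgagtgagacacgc
Txnrd1: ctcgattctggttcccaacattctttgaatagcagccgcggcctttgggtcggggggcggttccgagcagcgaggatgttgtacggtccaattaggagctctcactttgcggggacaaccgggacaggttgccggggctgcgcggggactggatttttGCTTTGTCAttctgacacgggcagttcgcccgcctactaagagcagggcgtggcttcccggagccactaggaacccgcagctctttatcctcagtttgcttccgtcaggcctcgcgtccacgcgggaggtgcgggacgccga
The match began 134 bases before the start in Gclm, 133 before it in Prdx1 and 92 before it in Txnrd1, and 28 bases past it in Srxn1. With a further A required (TGACNNNGCA), 1 gene, Txnrd1, held a match, beside 3.04% of all promoters. The searched windows of Nqo1, Gpx2, Slc7a11 and Osgin1 did not hold these letters, which says nothing of elements outside them.

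The filter kept 4066 cells, 2300 in set 1 and 1766 in set 2, with 61628537 and 51111519 UMIs. Median depth was close in the sets, at 29872 and 28759 UMIs per cell, and the median mitochondrial share was 9.29% and 9.08%. Of the barcode sequences 29 occurred with both suffixes, and 7 kept cells carried such a sequence, none of them kept in both sets. The cells were epithelial by their markers: the summed levels of the mesenchymal and immune lists were at most 1.12 CPM (the UMIs of a gene in every 1000000 UMIs of the cells), with Ptprc, Col3a1, Dcn and Lum at 0 in both sets. The endothelial list summed to 4.95 and 3.23 CPM, nearly all of it Pecam1, and to 30.3 and 16.8 CPM in the enteroendocrine gate, while Cdh5, Kdr and Plvap were at 0 in set 2. Gates on marker genes, none of them a gene of the NRF2 group, placed 1394 and 664 cells in G2 and mitosis, 165 and 262 in S phase, 158 and 212 in a crypt gate with low cycle genes, 129 and 184 in the enterocyte gate and 263 and 267 in the enteroendocrine gate. Smaller gates held 17 and 36 revival cells (Clu, Anxa1 and other genes of regenerating epithelium) and 31 and 12 goblet or Paneth cells, 30 and 39 cells passed more than 1 gate, and 113 and 90 passed none. The enteroendocrine markers summed to 50721 and 47471 CPM within their gate and to at most 104 CPM in the enterocyte, crypt and cycling gates.

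All 10 NRF2 target genes were higher in set 2 than in set 1, and 5 of the 10 (Nqo1, Srxn1, Slc7a11, Gpx2 and Osgin1) were at least 1.5-fold higher when compared on CPM plus 1. Among the 15474 genes with at least 10 UMIs, 57.7% were higher in set 2 and 2.46% were at least 1.5-fold higher. At least 1.5-fold higher in set 1 were 1.40% of genes and none of the 10, so that 3.86% of genes were this far apart in either direction. The median log2 ratio of the 10 genes, set 2 over set 1 on CPM plus 1, was 0.69, against 0.03 for all genes. Each of the 10 stood above 91.2% or more of the 7357 genes at 10 CPM or higher in the ranking by this ratio. The cell mix differed as well, since G2 and mitosis held 60.6% of cells in set 1 and 37.6% in set 2. Weighting the gates of both sets by the shares of set 1 gave a median of 0.53 and 4 genes past 1.5-fold.

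**Figure D1:**
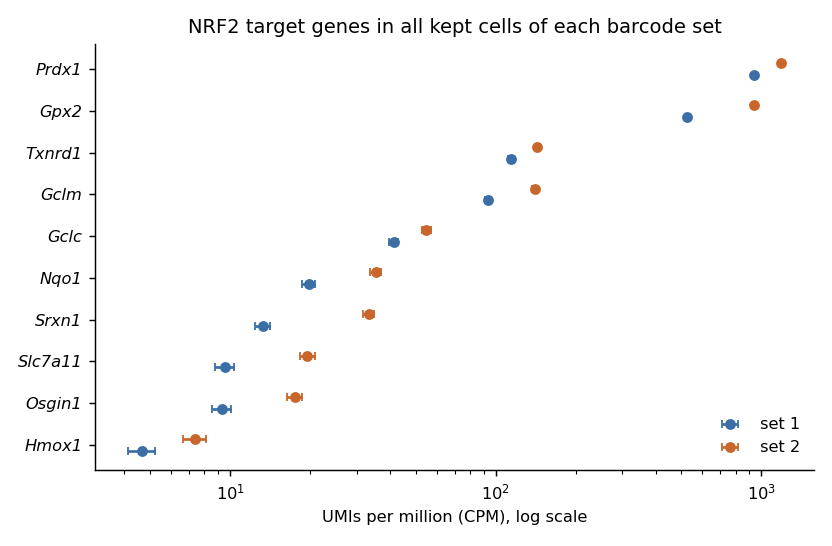
Level of each NRF2 target gene in all kept cells, in CPM on a log axis, with set 1 in blue and set 2 in orange and bars for the 95% Poisson interval of counting error. In each of the 10 genes the point of set 2 lies to the right of that of set 1 and the bars do not overlap, from Hmox1 at 4.64 and 7.36 CPM to Prdx1 at 937 and 1185 CPM.

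Of the detoxifying enzymes, Nqo1, a quinone reductase used as the standard readout of NRF2, had a level of 19.8 CPM (18.7 to 21.0) in set 1 against 35.4 CPM (33.8 to 37.1) in set 2, a ratio of 1.79 (1.66 to 1.92). Hmox1, which opens the heme ring and releases iron, was sparse, at 4.64 CPM (4.12 to 5.21) and 7.36 CPM (6.63 to 8.14), a ratio of 1.59 (1.36 to 1.86). On CPM plus 1 its log2 ratio of 0.57 fell just short of 1.5-fold, and it came to 0.02 when the gates had the same shares in both sets. Within gates its ratio lay on both sides of 1, at 1.82 (1.33 to 2.48) in G2 and mitosis, 1.63 (0.71 to 4.18) in the crypt gate, 1.31 (0.76 to 2.36) in S phase and 0.47 (0.31 to 0.69) in the enteroendocrine gate.

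The thiol-reducing enzymes split by the size of the difference. Srxn1, the sulfiredoxin that repairs overoxidised peroxiredoxins, had the highest ratio of the 10 genes, from 13.3 CPM (12.4 to 14.2) to 33.3 CPM (31.8 to 35.0), or 2.51-fold (2.31 to 2.74). Txnrd1, the cytosolic thioredoxin reductase, was at 114 CPM (111 to 117) and 143 CPM (140 to 147), a ratio of 1.26 (1.22 to 1.30). Prdx1, the peroxiredoxin that both of these enzymes serve, was at 937 CPM (929 to 945) and 1185 CPM (1175 to 1194), also a ratio of 1.26 (1.25 to 1.28). Sulfiredoxin thus differed more between the sets than its substrate did.

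The glutathione genes were also higher in set 2. Slc7a11, the cystine importer that feeds glutathione synthesis, was at 9.54 CPM (8.79 to 10.3) and 19.5 CPM (18.4 to 20.8), a ratio of 2.05 (1.85 to 2.27). Gclm, the modifier subunit of glutamate-cysteine ligase, was at 93.7 CPM (91.3 to 96.2) and 140 CPM (137 to 144), a ratio of 1.5 (1.45 to 1.55) that lay just under 1.5-fold on CPM plus 1. Gclc, the catalytic subunit of the same enzyme, was at 41.4 CPM (39.8 to 43.1) and 54.8 CPM (52.8 to 56.9), a ratio of 1.32 (1.25 to 1.40). In all kept cells the ratio of the modifier subunit was above that of the catalytic subunit, and their counting intervals did not overlap. In each of the 5 larger gates the intervals overlapped. Gclm had the higher ratio in G2 and mitosis (1.60 beside 1.46), the crypt gate (1.42 beside 1.10) and S phase (1.51 beside 1.46). Gclc had the higher ratio in enterocytes (1.47 beside 1.32) and enteroendocrine cells (1.11 beside 1.005). The order was reversed in barcodes over 20% mitochondrial, scaled to other UMIs. Gclm was at 1.58 (1.46 to 1.71) there and Gclc at 1.92 (1.76 to 2.10). The part of the cell mix was not tested.

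Gpx2, which reduces hydroperoxides with glutathione, had 524 CPM (518 to 530) in set 1 against 940 CPM (931 to 948) in set 2, a ratio of 1.79 (1.77 to 1.82). Osgin1, a stress-induced growth inhibitor, was at 9.30 CPM (8.55 to 10.1) and 17.5 CPM (16.4 to 18.7), a ratio of 1.89 (1.70 to 2.10). Both were past 1.5-fold, as were Nqo1, Srxn1 and Slc7a11, while Txnrd1, Prdx1 and Gclc stayed below it.

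Within G2 and mitosis, the gate with the most cells, all 10 genes were higher in set 2 and 7 of 10 were at least 1.5-fold higher, against 61.7% and 1.63% of 13692 genes, with a median log2 ratio of 0.77 against 0.06 for all genes. Median depth was 35533 and 37606.5 UMIs per cell. Markers of other gates also differed here: the 8 revival markers summed to 50.2 and 89.2 CPM and the 10 enterocyte markers to 2392 and 1527 CPM, with all of them detected in both sets. The revival markers also summed higher in set 2 in S phase, at 59.8 and 106 CPM, and in the crypt gate, at 75.3 and 117 CPM, and lower in enterocytes, at 43.8 and 33.0 CPM, and in the enteroendocrine gate, at 219 and 129 CPM. The enterocyte markers were at 3002 and 1509 CPM in S phase, 2255 and 1563 CPM in the crypt gate and 1632 and 1167 CPM in the enteroendocrine gate. The part of either list in the ratios within gates was not tested. Nqo1 was at 21.3 and 43.2 CPM, 2.03-fold (1.86 to 2.22). Srxn1 was at 10.8 and 28.8 CPM, 2.66-fold (2.36 to 3.00). Slc7a11 was at 7.46 and 18.9 CPM, 2.53-fold (2.18 to 2.93). The ratios of Srxn1 and Slc7a11 lay above 2 over their whole interval, and that of Nqo1 had 2 within it. Gpx2 was at 548 and 1070 CPM, 1.95-fold (1.92 to 1.99), and Osgin1 at 6.03 and 11.8 CPM, 1.96-fold (1.65 to 2.33). Hmox1 was the sparsest of the 10 genes in this gate, with 89 and 83 UMIs giving 2.02 CPM (1.62 to 2.48) and 3.68 CPM (2.93 to 4.56), 1.82-fold (1.33 to 2.48). Gclm was 1.60-fold higher (1.53 to 1.68), and the 3 genes under the call, Gclc, Txnrd1 and Prdx1, were 1.46-fold (1.36 to 1.57), 1.39-fold (1.34 to 1.45) and 1.24-fold (1.22 to 1.26) higher.

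In S phase all 10 genes were again higher in set 2, against 58.3% of 11306 genes, with 6 of 10 past 1.5-fold against 6.56% and a median of 0.60 against 0.06. Slc7a11 had the widest difference, 13 UMIs in 165 cells of set 1 and 165 UMIs in 262 cells of set 2, or 3.27 and 21.5 CPM, a ratio of 6.58 (3.74 to 12.6). Srxn1 was at 8.04 and 26.6 CPM, 3.31-fold (2.27 to 4.96), and Gpx2 at 505 and 1002 CPM, 1.98-fold (1.89 to 2.08). With doubled gate thresholds Gclm and Osgin1 were no longer past 1.5-fold in this gate, at log2 ratios of 0.45 and 0.25.

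In the crypt gate with low cycle genes all 10 genes were higher in set 2, against 47.5% of 10910 genes, but 3 of 10 were past 1.5-fold (Slc7a11, Gpx2 and Osgin1), against 5.46%, with a median of 0.53 against -0.02. Cells of set 1 were shallower here, with a median of 12338 UMIs against 24554 in set 2; the part of depth in these ratios was not tested. Markers of further cell types were lower in set 2 in this gate, with tuft markers at 33.2 CPM (6 of 6 detected) and 1.81 CPM (3 of 6), enteroendocrine markers at 104 and 47.3 CPM, goblet markers at 216 and 134 CPM and G2 and mitosis markers at 402 and 283 CPM, and their part was not tested either. Gpx2 was at 464 CPM (439 to 491) and 952 CPM (925 to 980), 2.05-fold (1.92 to 2.19). The counts of Slc7a11 (20 and 65 UMIs) and Osgin1 (20 and 83 UMIs) were low, and their direction turned when each cell was given equal weight, to log2 ratios of -0.36 and -0.00076. Of the 3 genes, Gpx2 alone was past 1.5-fold with each cell weighted equally.

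In the enterocyte gate, the absorptive cells, 9 of 10 genes were higher in set 2 and 4 of 10 were at least 1.5-fold higher (Nqo1, Srxn1, Gpx2 and Osgin1), against 49.9% and 4.76% of 11110 genes, with a median of 0.47 against -0.00067. Cycle and stem markers were lower in set 2 in this gate, with G2 and mitosis markers at 484 and 245 CPM, S phase markers at 145 and 91.4 CPM and stem markers at 186 and 120 CPM, all but 1 of the 8 stem markers detected; their part in the ratios was not tested. Nqo1 was at 20.9 CPM (16.6 to 25.9) and 48.2 CPM (43.0 to 54.0), 2.31-fold (1.81 to 2.98). Srxn1 was at 36.5 CPM (30.8 to 42.9) and 76.8 CPM (70.2 to 84.0), 2.11-fold (1.75 to 2.55). Gpx2 was low in these cells, at 170 CPM (158 to 183) and 346 CPM (331 to 361), yet its ratio of 2.03 (1.86 to 2.22) was like that in the crypt gates. Osgin1 was at 28.2 and 44.7 CPM, 1.59-fold (1.27 to 1.99), and came to a log2 ratio of 0.06 with a mitochondrial limit of 10%. Hmox1, at 8.81 and 8.70 CPM, had a ratio of 0.99 (0.63 to 1.55), and Slc7a11 one of 1.14 (0.76 to 1.74). The top 3 cells held 55.3% of the Slc7a11 UMIs of set 1 in this gate.

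In the enteroendocrine gate, the hormone-producing cells, the ratios lay nearer to 1. None of the 10 genes was at least 1.5-fold higher in set 2, against 4.36% of 12449 genes, and 7 of 10 were higher by any amount, against 40.1% of genes. The median log2 ratio was 0.04 against -0.07 for all genes. Nqo1 was at 5.05 CPM (3.08 to 7.80) and 4.97 CPM (3.07 to 7.59), a ratio of 0.98 (0.51 to 1.91) that rests on 20 and 21 UMIs, of which the part from free RNA of other cells was not measured. Srxn1 was at 16.9 and 18.0 CPM, a ratio of 1.06 (0.75 to 1.5), and Slc7a11 at 8.84 and 8.28 CPM, a ratio of 0.94 (0.57 to 1.54). The intervals of Srxn1 and Slc7a11 lie below the ratios in G2 and mitosis, while Prdx1, at 692 and 839 CPM, had a ratio of 1.21 (1.15 to 1.27) beside 1.24 there, and the difference between the gates was not tested. Prdx1 and Gpx2, the latter at 443 and 510 CPM (1.15-fold, 1.08 to 1.23), were the only 2 of the 10 higher in set 2 beyond counting error. Hmox1 went the other way, with 82 UMIs and 20.7 CPM (16.5 to 25.7) in set 1 against 41 UMIs and 9.70 CPM (6.96 to 13.2) in set 2, and was the 1 gene of 10 at least 1.5-fold higher in set 1, against 8.45% of genes. Depth was even here, with medians of 14277 and 14705 UMIs per cell.

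**Figure D2:**
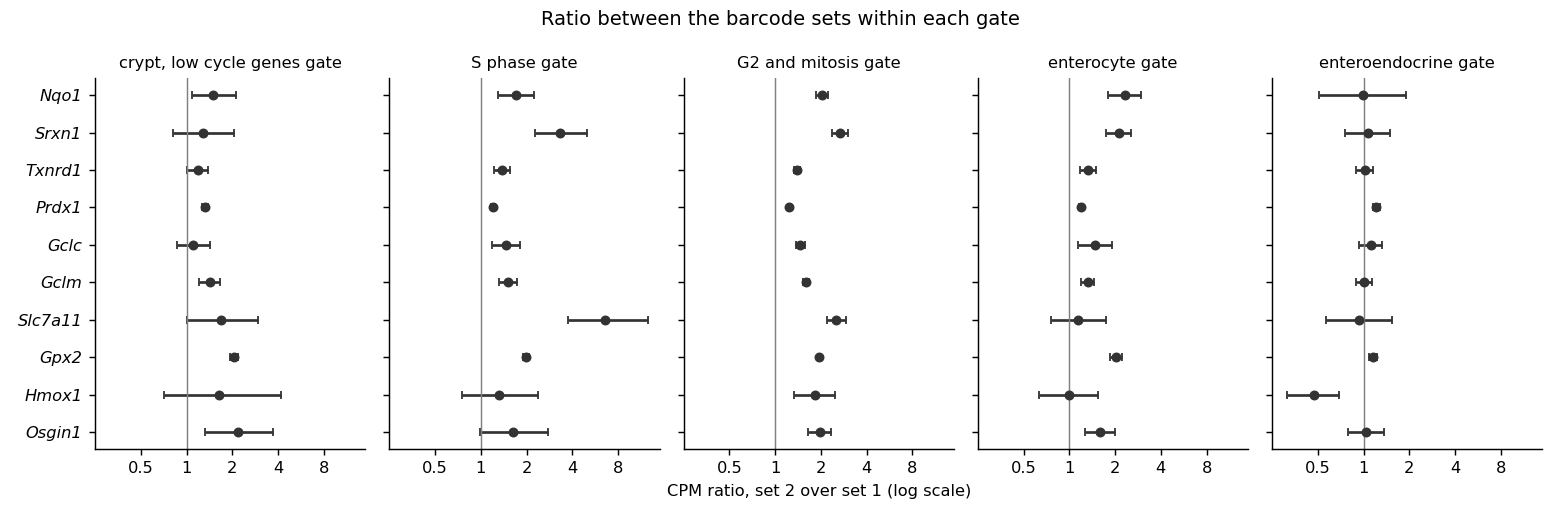
CPM ratio of set 2 over set 1 for each NRF2 target gene in the 5 gates with at least 50 cells in each set, on a log axis, with 95% counting intervals and a vertical line at a ratio of 1. In G2 and mitosis all 10 intervals lie above 1, while in the enteroendocrine gate the points sit near 1 except Hmox1 at 0.47.

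The level of each gene also differed between cell types in the same set. Nqo1 was 4.21-fold lower (2.71 to 6.92) in the enteroendocrine gate than in G2 and mitosis in set 1, and 8.69-fold lower (5.65 to 14.1) in set 2. Any free RNA of other cells would make these folds lower bounds. For Nqo1 the enterocyte gate was within counting error of G2 and mitosis in both sets, at 0.98-fold (0.78 to 1.23) and 1.12-fold (0.98 to 1.27). Gpx2 was 3.22-fold lower (2.99 to 3.48) and 3.1-fold lower (2.96 to 3.24) in enterocytes than in G2 and mitosis. The order of Gpx2 and Nqo1 across cell types was thus not the same, with Gpx2 lowest in absorptive cells and Nqo1 low in hormone-producing cells.

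Osgin1, Hmox1 and Srxn1 were higher in some of the differentiated gates. Osgin1 was 4.67-fold (3.71 to 5.85) and 3.78-fold (3.19 to 4.49) higher in enterocytes than in G2 and mitosis, and 4.31-fold (3.4 to 5.43) and 2.28-fold (1.82 to 2.85) higher in enteroendocrine cells. Srxn1 was 3.37-fold (2.78 to 4.06) and 2.67-fold (2.37 to 3.00) higher in enterocytes, but in enteroendocrine cells it was 1.56-fold higher (1.19 to 2.02) in set 1 and 1.60-fold lower (1.26 to 2.06) in set 2. Hmox1 in set 1 was 10.3-fold higher (7.5 to 14) in enteroendocrine cells than in G2 and mitosis and in set 2 was 2.64-fold higher (1.77 to 3.88). Within glutamate-cysteine ligase, enterocytes had more of the modifier and less of the catalytic subunit than G2 and mitosis: Gclm was 1.85-fold (1.70 to 2.02) and 1.53-fold (1.43 to 1.63) higher, and Gclc 1.88-fold (1.52 to 2.36) and 1.87-fold (1.62 to 2.18) lower. Txnrd1 lay between 87.3 and 119 CPM across the 5 larger gates in set 1 and between 103 and 165 CPM in set 2.

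The revival gate was too small for a ratio between the sets, and its levels rest on few cells. Slc7a11 was at 255 CPM (210 to 307) in the 17 cells of set 1 and at 64.4 CPM (53.5 to 77.0) in the 36 of set 2. Gpx2 was at 1873 CPM (1747 to 2005) and 1994 CPM (1930 to 2059), and Hmox1 at 61.0 CPM (40.2 to 88.7) and 34.6 CPM (26.7 to 44.1). In each set, no other gate had a higher level of Slc7a11, Gpx2 or Hmox1. For Gpx2 of set 1 this order rested on 3 cells. Gclc, at 142 and 96.4 CPM, and Prdx1, at 1360 and 1373 CPM, were also highest in this gate. For Prdx1 of set 2 the interval overlapped that of enterocytes. Nqo1 was at 49.7 CPM in set 1, the highest of the gates, and at 14.4 CPM in set 2, where this gate ranked 5th. In set 1 the top 3 cells for each gene held 53.1% of the Slc7a11, 76.1% of the Gpx2 and 66.7% of the Hmox1 UMIs. For Gclc, Prdx1 and Nqo1 they held 66.7%, 56.6% and 72.7%. Without the top 3 cells of each set Slc7a11 was at 179 and 51.1 CPM, Hmox1 at 31.2 and 23.0 CPM and Gpx2 at 689 and 1582 CPM. Hmox1 of both sets and Gpx2 of set 1 thus moved by more than 1.5 times, and Gpx2 of set 1 came to lie below the goblet or Paneth gate, which was at 1251 CPM without its own top 3 cells. By the median cell with at least 5000 UMIs, Gpx2 was lower in the revival gate, at 3.60 and 9.86 UMIs per 10000, than in the goblet or Paneth gate, at 13.5 and 13.1. In the goblet or Paneth gate Gpx2 was at 1583 CPM (1484 to 1686) and 1581 CPM (1449 to 1722), and Nqo1 had 0 UMIs in the 31 cells of set 1, where the limit of 3 counts is 4.99 CPM, and 2 UMIs in the 12 cells of set 2.

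**Figure D3:**
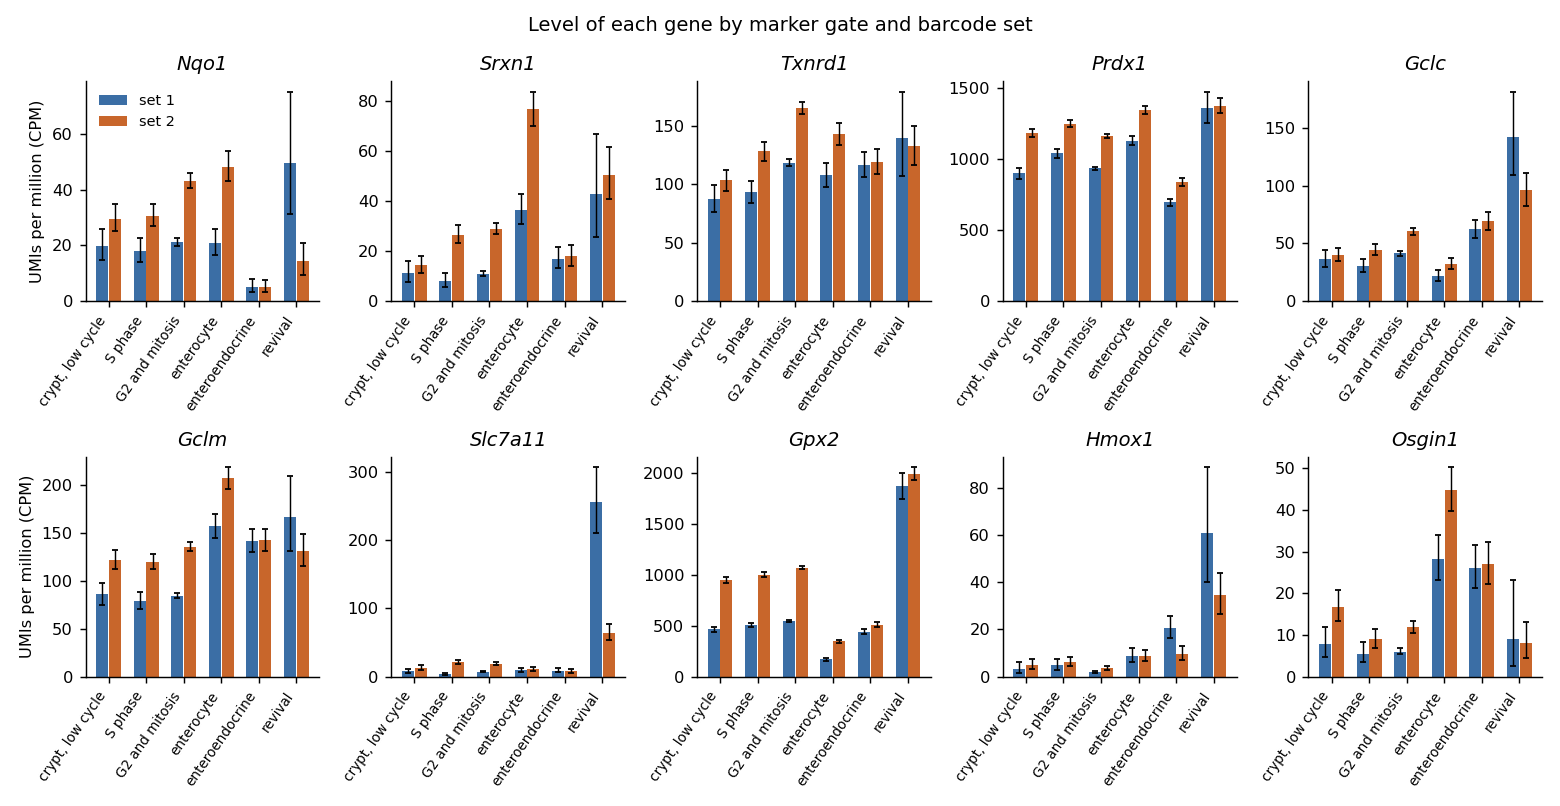
Level of each NRF2 target gene (CPM, linear axes starting at 0, 1 panel a gene) in 6 gates, set 1 in blue and set 2 in orange, with 95% Poisson intervals. The orange bars of Gpx2 stand well above the blue in the crypt, cycling and enterocyte gates and near them in enteroendocrine cells, and the Slc7a11 panel is dominated by the revival gate at 255 and 64.4 CPM.

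Cell by cell, the Gpx2 difference was spread over the distribution and was not carried by a few cells. Among cells with at least 5000 UMIs, the median in G2 and mitosis was 4.80 Gpx2 UMIs per 10000 in set 1 and 9.70 in set 2, and the upper quartile of set 1 (6.72) was close to the lower quartile of set 2 (6.34). The medians were 4.27 and 9.19 in S phase, 3.71 and 8.51 in the crypt gate with low cycle genes and 1.27 and 2.08 in enterocytes. In enteroendocrine cells they were 3.55 and 3.57. In all kept cells the top 3 cells held between 0.8% and 12.5% of the UMIs of any of the 10 genes.

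**Figure D4:**
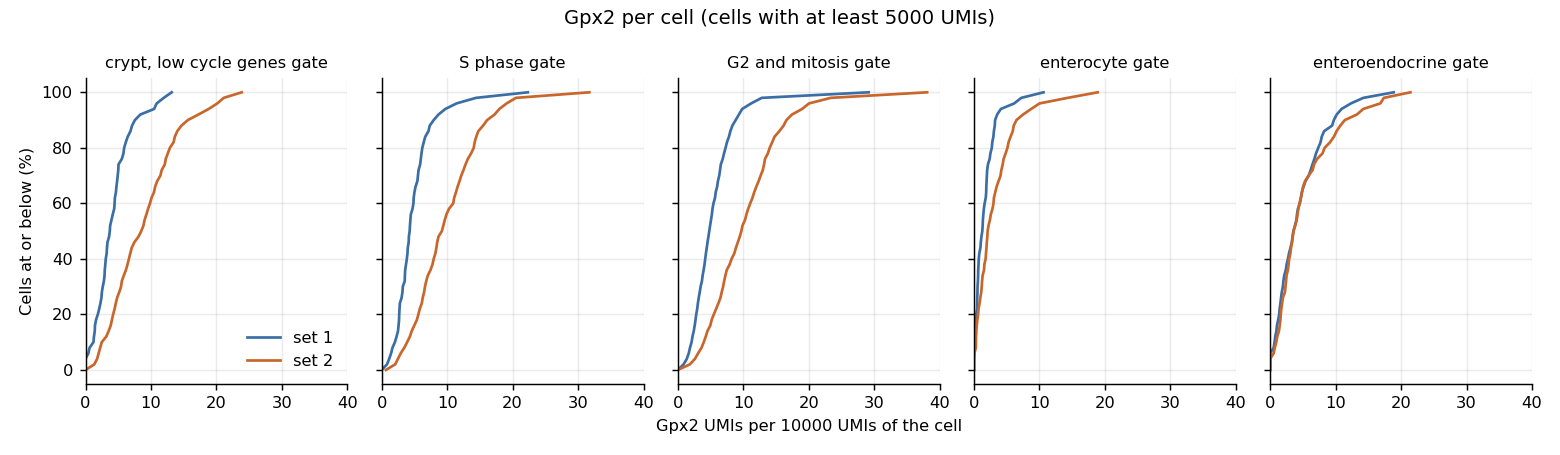
Share of cells (percent, vertical axis) at or below a given Gpx2 level (UMIs per 10000 UMIs of the cell, horizontal axis) in 5 gates, for cells with at least 5000 UMIs, set 1 in blue and set 2 in orange. The curve of set 2 lies to the right of that of set 1 in the crypt, cycling and enterocyte gates, and the curves run together up to their medians in enteroendocrine cells, at 3.55 and 3.57.

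The share of cells with at least 1 UMI showed the same for the sparse genes once each cell was thinned to 2000 UMIs. In G2 and mitosis Nqo1 was found in 3.99% of cells (2.94 to 5.19) in set 1 and 7.95% (5.97 to 10.4) in set 2, and without thinning in 42.4% and 62.2%. Slc7a11 was found in 1.36% (0.80 to 2.19) and 3.43% (2.21 to 5.26), and without thinning in 14.9% and 31.3%. In enteroendocrine cells Nqo1 was found in 0.83% (0.093 to 2.74) and 0.63% (0.093 to 2.73), and without thinning in 6.08% and 5.24%. Thinning left out 155 and 36 cells of G2 and mitosis and 2 and 5 enteroendocrine cells. No gated cell type is known to lack these genes, so free RNA was gauged with the enteroendocrine granin gene Chgb, which at this depth was found in 9.99% and 9.98% of cells in G2 and mitosis and in 99.3% and 98.4% of enteroendocrine cells. The Chgb share was thus alike in the sets in G2 and mitosis, while in the crypt gate it was 16.7% (10.3 to 24.2) in set 1 and 6.97% (3.98 to 11.8) in set 2. The Nqo1 shares in enteroendocrine cells were at or near the level of single UMIs, and nothing is read from them.

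The regulators of the pathway had a lower median ratio than these targets, at the RNA level. Nfe2l2 was at 131 CPM (128 to 134) and 142 CPM (139 to 145), Keap1 at 38.2 CPM (36.7 to 39.8) and 44.1 CPM (42.3 to 46.0), and Bach1 at 54.7 CPM (52.9 to 56.6) and 56.0 CPM (54.0 to 58.1). Of 10 regulators 9 were higher in set 2 and 2 at least 1.5-fold higher, beside 57.7% and 2.46% of all genes, and the list had a median log2 ratio of 0.18 beside 0.03. The 2 were Sqstm1, a KEAP1-binding autophagy adaptor, at 54.6 and 88.3 CPM, and Maff, a small MAF partner, at 18.6 and 36.0 CPM; they were named after their values were seen. In enteroendocrine cells Nfe2l2 was at 88.1 CPM (79.1 to 97.9) and 70.0 CPM (62.3 to 78.5).

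A wider list of 26 other NRF2 targets was also higher in set 2 by its median. This list was chosen with earlier results of these data known, so it is no independent support. Of its 25 genes with at least 10 UMIs, 24 were higher in set 2, 15 were at least 1.5-fold higher and none was 1.5-fold higher in set 1, with a median of 0.68. The shares over all genes were 57.7%, 2.46% and 1.40%, with a median of 0.03. Glutathione S-transferases, which join glutathione to electrophiles, were among them: Gsta3 at 69.1 and 196 CPM (2.83-fold, 2.73 to 2.94), Gstm1 at 442 and 1107 CPM (2.51-fold, 2.47 to 2.54), Gstm3 at 278 and 620 CPM (2.23-fold), Gsta4 at 639 and 1079 CPM (1.69-fold) and Gstp1 at 24.8 and 40.9 CPM (1.65-fold). Some glutathione S-transferases have near-identical paralogs among which reads can be split. This was not measured for any of these genes, so the value of each is uncertain. Carbonyl and aldehyde reductases were also higher, with Akr1b8 at 7.74 and 26.6 CPM (3.44-fold, 3.1 to 3.82), Cbr3 at 122 and 242 CPM (1.99-fold, 1.93 to 2.04) and Cbr1 at 257 and 403 CPM (1.57-fold). Ephx1, an epoxide hydrolase, was at 42.7 and 85.7 CPM, 2.01-fold (1.91 to 2.11).

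The same list includes iron storage and sugar metabolism. The ferritin chains Fth1 (4135 and 6350 CPM, 1.54-fold) and Ftl1 (1577 and 2530 CPM, 1.60-fold) were higher in set 2, as were the NADPH-producing malic enzyme Me1 (24.2 and 42.1 CPM, 1.74-fold), Ugdh (60.1 and 111 CPM, 1.84-fold) and the leucine sensor Sesn2 (8.68 and 14.5 CPM, 1.67-fold). The pentose phosphate genes, named after their values were seen, were under the call, with G6pdx at 1.44-fold (1.34 to 1.55), Pgd at 1.46-fold (1.42 to 1.5), Tkt at 1.19-fold (1.17 to 1.21) and Taldo1 at 0.97-fold (0.95 to 0.99). Within G2 and mitosis Fth1 had a ratio of 1.07 and Ftl1 one of 1.60, and Fth1 was at 1.13 in the crypt gate, 0.97 in S phase, 0.98 in enteroendocrine cells and 1.37 in enterocytes. No gate thus had the 1.54-fold of all cells; enterocytes, where Fth1 was at 20284 and 27759 CPM, were 5.61% of cells in set 1 and 10.4% in set 2. Txn1, the thioredoxin that Txnrd1 reduces, was at 1812 and 1843 CPM, a ratio of 1.02 (1.01 to 1.03). By gate, 16 of 25 list genes were at least 1.5-fold higher in set 2 in G2 and mitosis (median 0.70), beside 1.63% of all genes. The counts were 14 of 25 in S phase (0.67), beside 6.56%, and 13 of 25 in the crypt gate (0.59), beside 5.46%. They were 7 of 25 in enterocytes (0.41), beside 4.76%, and 5 of 24 in enteroendocrine cells (0.04), beside 4.36%. The 5 genes past 1.5-fold in enteroendocrine cells, named after their values were seen, were Gsta3 at 6.57 and 14.9 CPM (2.27-fold, 1.42 to 3.73), Ephx1 (1.87-fold, 1.18 to 3.03), Gstm1 (1.63-fold, 1.40 to 1.91), Gstm3 (1.53-fold, 1.20 to 1.95) and Me1 (1.63-fold, 0.99 to 2.72). Akr1b8 had 5 and 10 UMIs there, too few to tell its sets apart.

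Antioxidant enzymes not listed as NRF2 targets differed in both directions. Of 16 such genes 10 were higher in set 2, near the 57.7% of all genes, 2 were at least 1.5-fold higher, beside 2.46%, and none was 1.5-fold higher in set 1, beside 1.40%, with a median of 0.09 against 0.03. Gss, the second enzyme of glutathione synthesis, was at 46.4 and 73.2 CPM, 1.58-fold (1.5 to 1.66). Prdx2 was at 388 and 382 CPM (0.98-fold), Gpx4 at 335 and 409 CPM (1.22-fold) and Prdx6 at 271 and 293 CPM (1.08-fold). Gpx3, the other gene past 1.5-fold, was at 1.18 and 2.29 CPM, a ratio of 1.93 (1.43 to 2.63), and was named after its values were seen. Lower in set 2 were Gpx1, the widespread glutathione peroxidase, at 152 and 123 CPM (0.81-fold, 0.78 to 0.83), Prdx4 (0.76-fold, 0.73 to 0.80) and Txnrd3 (0.77-fold, 0.67 to 0.88). Catalase, encoded by Cat (1.46-fold, 1.39 to 1.52), and Sod1 (1.40-fold, 1.36 to 1.44) were higher but under the call; these 5 genes were named after their values were seen. Immediate early and heat shock genes, listed as stress genes, were higher in set 2 as well by their medians. The 8 immediate early genes had a median of 0.30 and the 6 heat shock genes one of 0.34. In each list 1 gene was past 1.5-fold, beside 2.46% of all genes. These were Atf3, at 226 and 369 CPM (1.64-fold, 1.60 to 1.67), and Hspb1, at 1.83 and 3.76 CPM (2.05-fold, 1.62 to 2.61), both named after their values were seen. The part of both lists in the differences of the NRF2 target genes was not tested; within G2 and mitosis the medians of the lists were 0.14 and 0.48, beside 0.77 for the 10 genes. In S phase they were 0.44 and -0.09 beside 0.60, in the crypt gate 0.47 and 0.30 beside 0.53, in enterocytes 0.11 and -0.32 beside 0.47, and in enteroendocrine cells -0.0034 and -0.41 beside 0.04. The immediate early genes thus came near the 10 genes in the crypt gate, where 3 of 8 were past 1.5-fold beside 5.46% of all genes, and neither list was higher in set 2 by its median in enteroendocrine cells. Of the 6 heat shock genes in the crypt gate, 2 were at least 1.5-fold higher in set 2, and 1 was as far higher in set 1, beside 8.54% of all genes.

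**Figure D5:**
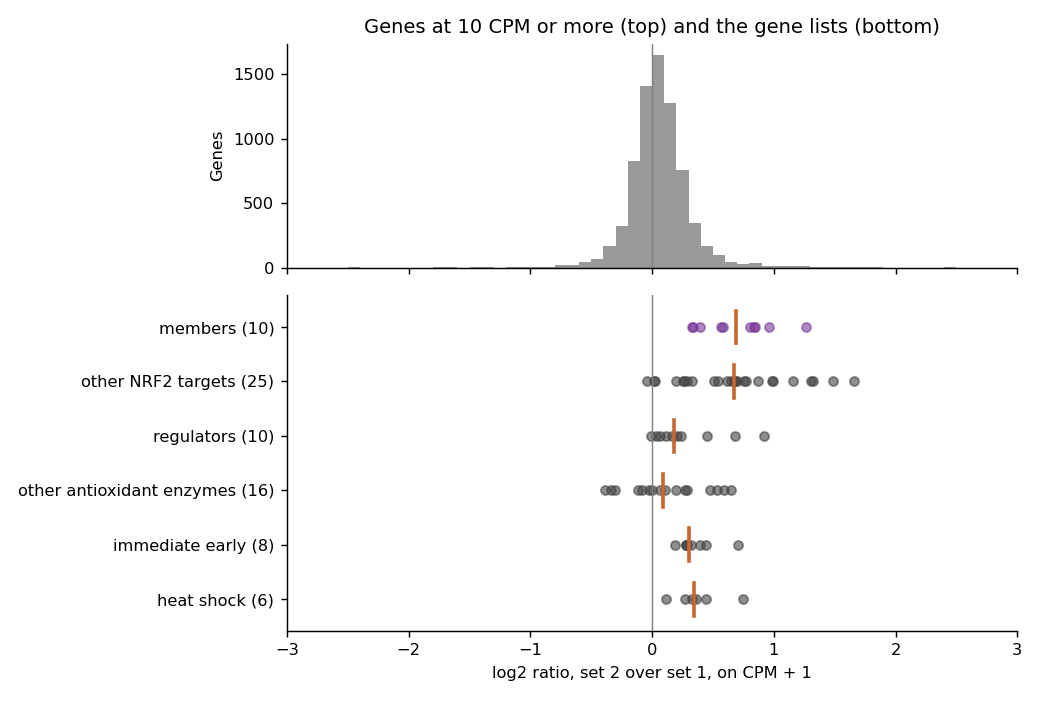
Top, histogram of the log2 ratio of set 2 over set 1 (CPM plus 1) for the 7357 genes at 10 CPM or higher, without the 4 genes that lie beyond the axis. Bottom, the same ratio for each gene of the lists with at least 10 UMIs, with the number of genes in parentheses and an orange bar at the median; the 10 genes and the other NRF2 targets have medians of 0.69 and 0.68, and the other lists lie between 0.09 and 0.34.

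Across all cells of a set the 10 genes varied together weakly. Over the 45 pairs of genes, the median Pearson r of ln(1 + UMIs per 10000) was 0.03 in 1915 cells of set 1 and 0.10 in 1617 cells of set 2, and the highest was 0.16 and 0.25. Within gates the medians stayed between -0.01 and 0.09, while single pairs reached 0.39 and 0.35 in the crypt gate, 0.40 and 0.43 in enterocytes and 0.30 and 0.36 in G2 and mitosis, with at most 10 of 45 pairs at 0.2 or above in any gate. Within G2 and mitosis the pair of Prdx1 and Gpx2 had r of 0.30 and 0.28; each of these genes also rose with the depth of the cell, with r of 0.47 and 0.41 for Prdx1 and 0.28 and 0.26 for Gpx2. The cells of a set share a library, and in sparse counts such values are descriptions without a test. Likeness was ranked by the mean r of the sets among 4857 genes with at least 20 CPM in each set. It used all kept cells, so differences between cell types enter it, and their part was not tested. Most like Nqo1 were Cbr3 (0.34), Gstm1 (0.32), Mgst1 (0.30), Gsta3 (0.29) and Gstm3 (0.29). Like Nqo1, several of these were lower in the enteroendocrine gate than in G2 and mitosis. In set 1 Cbr3 was at 21.7 and 136 CPM in these gates, Gstm1 at 65.7 and 375 CPM and Gsta3 at 6.57 and 71.2 CPM. All 5 are in the list of other NRF2 targets, which can make up at most 26 of the 4857 genes. Those most like Gpx2 were Ptma (0.44), Eef1g (0.42), Ran (0.42), Hsp90ab1 (0.41) and Npm1 (0.41), none of which is in that list.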

How the data were processed

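The deposited values are raw UMI counts per gene and barcode, made by the authors with Cell Ranger 3.1.0, STAR 2.7.3a and bcl2fastq 2.20.0 per the submitters' processing notes; the genome build and annotation are not given in the sources used here. The whole numbers were used without normalization. For each gene the UMIs of all cells in a set or gate were added and divided by all UMIs of the same cells (CPM). Levels have exact Poisson intervals, with exact conditional binomial intervals for ratios and Clopper-Pearson intervals for shares, all at 95%. The 1.5-fold call used CPM plus 1, which understates ratios of low genes, over genes with at least 10 UMIs. Where no UMI was seen, the limit is that of 3 counts. Cells had 1002 to 91940 UMIs (set 1) or 1002 to 124906 (set 2), and 3 UMIs are 0.049 and 0.059 CPM.

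Gates required at least 3 detected markers and a summed level per 10000 UMIs of 40 (enteroendocrine), 100 (enterocyte), 60 (goblet), 20 (Paneth) or 6 (revival). Cells in none of these were placed in G2 and mitosis (8), otherwise S phase (4), otherwise the crypt gate (stem markers, 4). These thresholds were set after the marker distributions were seen. No doublet caller was run; cells of more than 1 differentiated gate were kept apart, and leaving out the 5% deepest cells was an alternative. Shares at fixed depth are expected values after thinning to 2000 UMIs.

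All 10 genes are named, with Nfe2l2, Keap1 and Bach1, and from the other NRF2 targets and other antioxidant enzymes the genes at 10 CPM or more that differed 1.5-fold and the 3 most abundant. The genes and lists were chosen with earlier results of these data known. Because both samples hold the same matrix, it was handled as 1 sample with no test. Sums and ratios were checked on simulated counts. Python 3.11.15, numpy 2.4.6, scipy 1.17.1, pandas 2.3.3 and matplotlib 3.10.9 were used.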

Additional observations from a re-analysis of the deposited data

Results flagged for a closer look

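Hmox1 moved in opposite directions between the sets in different cell types. Its ratio of set 2 over set 1 was 0.47 in the enteroendocrine gate, from 82 and 41 UMIs, and 1.82 in G2 and mitosis, from 89 and 83 UMIs. The difference between the gates was not tested, since each set is a single pool of barcodes. In the enteroendocrine gate the log2 ratio stayed between -1.22 and -0.88 under the 5 alternatives run, among them the one without the 3 cells with the most Hmox1 UMIs.

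The NRF2 target genes were also present in barcodes that the filter left out for more than 20% mitochondrial UMIs, 6110 in set 1 and 3671 in set 2. Scaled to the UMIs that are not mitochondrial, the 10 genes summed to 1464 CPM (1446 to 1483) in set 1 against 2228 CPM (2202 to 2253) in set 2, a ratio of 1.52 (1.5 to 1.55). Gpx2 had a ratio of 2.15 there, Hmox1 one of 1.01 (0.73 to 1.39), and the other 8 genes lay between 1.10 and 2.22.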

How the results depend on the processing

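The median log2 ratio of the 10 genes (0.69) stayed above 0 under all 13 alternatives run and ranged from 0.53 to 0.84. It was 0.53 with a pseudocount of 10 CPM, 0.53 with the gate shares of set 1 in both sets and 0.84 without the enteroendocrine-gated cells; the latter 2 alternatives, the one without revival-gated cells and the one for gates without the top 3 cells were chosen after seeing the data. The number of genes past 1.5-fold (5) ranged from 4 to 7. In the crypt gate with low cycle genes, Slc7a11 came to -0.36 and Osgin1 to -0.00076 when each cell had equal weight; the cause was not tested. Of 50 ratios within gates, between 37 and 50 moved by less than counting error under each of the 5 alternatives. Of the 140 levels by gene, gate and set, between 93 and 133 stayed within their counting interval. Over all kept cells, 7 of the 10 log2 ratios moved by more than counting error with the gate shares of set 1 in both sets. With each cell weighted equally 8 of 10 did so, and none was reversed in either case. The count of genes with an antioxidant response element core fell from 4 to 1 with the longer letters, which fewer promoters hold. No paired analysis was possible because the labels give no replicate numbers and both samples hold the same matrix. Depth limits Hmox1, Slc7a11 and Osgin1 within gates, several of which rest on fewer than 30 UMIs in a set, and the 17 revival cells of set 1. No alternative can show the spread between cultures, which 1 matrix does not hold.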
